A study of Caenorhabditis elegans with 12 samples.

Results

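The 4 genes nhj-1, cku-70, cku-80 and lig-4 act in the repair of broken chromosomes by non-homologous end joining. Their transcripts were measured in whole Caenorhabditis elegans embryos, and repair itself was not. The genes were found on the array by gene symbol. This gave 5 probe sets of the 22548 tested, and 4 of the 17118 genes that had a probe set of their own name. The gene nhj-1 was selected on its measured values, because earlier results from these arrays had shown it higher in a double mutant than in wild type. The other 3 were added for their role in the same pathway. All values of nhj-1 are therefore given here as a description, with no test, while the other genes were tested together with every probe set on the array.

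In non-homologous end joining, the broken ends of DNA are bound by a ring-shaped pair of proteins, held together and sealed directly, without a matching copy of the sequence as a template. CKU-70 and CKU-80 are the worm's Ku proteins, which form that ring, and LIG-4 is the DNA ligase that seals the break. NHJ-1 is a further worm protein needed for the pathway. In worms the germ line relies mainly on homologous recombination, which copies an intact sequence, and end joining is best known from somatic cells, including those of late embryos.

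Embryos were taken at the 3-fold stage, late in elongation, when most cell division has ended. One group carried daf-19(m86) and daf-12(sa204) together (strain JT6924) and is called the double mutant, one carried daf-12(sa204) alone (strain JT204), and one was wild type N2 Bristol (strain JT5010). DAF-19 is the RFX transcription factor of ciliary genes and DAF-12 a nuclear hormone receptor, and every mutant embryo carried the same daf-12 allele. Each group had 4 columns of values, but the first and second columns of the double mutant held the same value in each of 22625 probe sets and were counted as a single array, called array 1-2, which left 3 arrays of the double mutant and 4 of each other group. Each genotype was represented by a single strain, so a difference due to the named alleles and any other difference between the strains cannot be told apart.

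Values were on the log2 scale, ran from 2.78 to 14.71 over the tested probe sets, and had array medians between 6.20 and 6.36. Of 18 markers of muscle, intestine, pharynx, neurons and epidermis, 15 lay above the array median on all 11 arrays. The daf-19 transcript lay between 8.29 and 8.88 in the double mutant and between 9.75 and 10.28 in the other groups, while the daf-12 transcript lay between 8.09 and 9.33 in all groups. Each was read at a single probe set, of 2 for daf-19 and 3 for daf-12, and the others are not shown. The 27 probe sets for poly-A RNA added during labelling averaged 4.08 to 4.24 on replicates 1 and 2 of every group and 6.76 to 9.49 on replicates 3 and 4, so values within these sets of arrays are given beside the pooled ones. The labels name no batch and do not say that replicates were separate cultures, so a p-value measures only the spread between these arrays. In whole embryos, fewer cells that express a gene and less RNA per cell cannot be told apart.

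The transcript of nhj-1 (H19N07.3, on chromosome V) was much higher in both mutant groups than in wild type. Its single probe set read 9.41, 10.18 and 10.13 on double mutant arrays 1-2, 3 and 4. On daf-12 mutant arrays 1 to 4 it read 9.48, 9.53, 10.36 and 9.94. On wild type arrays 1 to 4 it read 6.34, 7.27, 6.71 and 7.91. All 7 arrays with the daf-12 allele lay above all 4 wild type arrays, and the mutant groups overlapped each other.

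The mean of nhj-1 was 9.91 ± 0.43 (SD, n = 3) in the double mutant, 9.83 ± 0.41 (SD, n = 4) with daf-12(sa204) alone, and 7.06 ± 0.69 (SD, n = 4) in wild type. The double mutant exceeded wild type by 2.85 ± 0.36 (SE) on the log2 scale, which is 7.22-fold. The daf-12 mutant exceeded wild type by 2.77 ± 0.34, which is 6.82-fold. These differences share the wild type arrays and are not independent of each other. The mutant groups differed by 0.08 ± 0.36, so the further allele daf-19(m86) came with a change in nhj-1 smaller than the spread between arrays.

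The lowest array with the daf-12 allele stood 1.505 above the highest wild type array, and the wild type arrays themselves spanned 1.57. That gap ranked first among the 22548 probe sets, where the next was 0.67, for a probe set shared by F56A4.2 and clec-209. Over all probe sets, 47 (0.208%) had every array with the daf-12 allele above every wild type array, and 41 (0.182%) had the opposite order. The ranking describes the values on which nhj-1 was picked and is no further support for them.

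The level of nhj-1 also differed between the sets of arrays, in the same direction in every group. Replicates 3 and 4 exceeded replicates 1 and 2 by 0.74 in the double mutant, 0.65 in the daf-12 mutant and 0.50 in wild type. Within replicates 1 and 2, the double mutant exceeded wild type by 2.61 and the daf-12 mutant exceeded it by 2.70. Within replicates 3 and 4 these differences were 2.85 and 2.84. The difference between the mutant groups was -0.09 in the first set and 0.00 in the second. The mutant groups therefore lay within 0.1 of each other in either set, while each stood more than 2.5 above wild type.

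**Figure D1:**
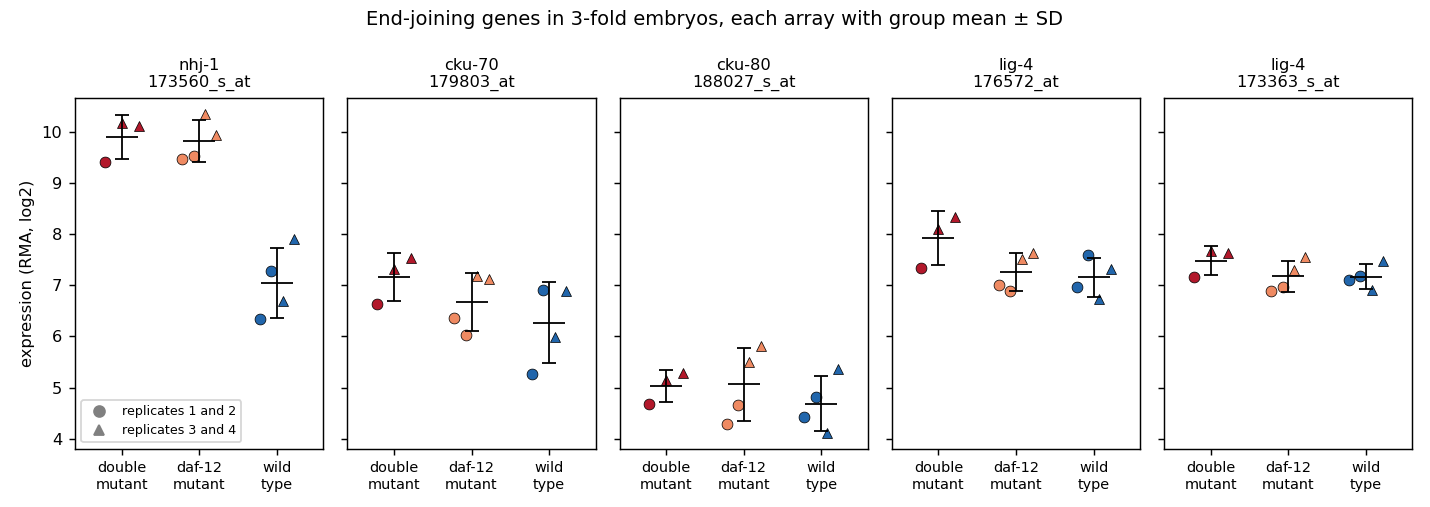
Expression of the 5 probe sets (log2, vertical axis) on each of 11 arrays, by genotype, with circles for replicates 1 and 2, triangles for replicates 3 and 4, and bars for the group mean ± SD. The 7 mutant arrays of nhj-1 sit between 9.41 and 10.36, above the wild type arrays at 6.34 to 7.91, while the groups overlap at every other probe set.

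The Ku genes did not show this separation. The gene cku-70 (Y47D3A.4, chromosome III) read 6.63, 7.33 and 7.54 in the double mutant, 6.37, 6.03, 7.18 and 7.12 in the daf-12 mutant, and 5.27, 6.91, 5.99 and 6.90 in wild type, in array order. The groups overlapped, and wild type arrays 2 and 4 lay above 3 of the 7 mutant arrays. Its difference from wild type was 0.90 ± 0.43 (SE) in the double mutant (95% interval -0.04 to 1.84, limma adjusted p = 1.00). In the daf-12 mutant it was 0.41 ± 0.40 (-0.46 to 1.28, limma adjusted p = 1.00). Without wild type array 1, the lowest, they were 0.57 and 0.0759. Within replicates 1 and 2 these differences were 0.54 and 0.11, and within replicates 3 and 4 they were 0.99 and 0.71.

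The gene cku-80 (R07E5.8, chromosome III), for the other Ku protein, read 4.68, 5.15 and 5.28 in the double mutant. It read 4.28, 4.67, 5.50 and 5.82 in the daf-12 mutant and 4.43, 4.81, 4.11 and 5.37 in wild type. All 3 groups overlapped, and every value lay below the lowest array median of 6.20, a dim signal whose height over background is unknown. It exceeded wild type by 0.35 ± 0.39 in the double mutant (95% interval -0.49 to 1.20) and by 0.39 ± 0.36 in the daf-12 mutant (-0.40 to 1.17), each with a limma adjusted p of 1.00. The second of these turned to -0.15 within replicates 1 and 2 and reached 0.92 in the other set.

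The ligase gene lig-4 (C07H6.1, chromosome III) had 2 probe sets. The brighter read 7.33, 8.11 and 8.34 in the double mutant, 7.01, 6.89, 7.51 and 7.64 in the daf-12 mutant, and 6.98, 7.61, 6.74 and 7.32 in wild type. Double mutant arrays 3 and 4 were the highest, and array 1-2 lay among the arrays of the other groups. The double mutant differed from wild type by 0.77 ± 0.30 (95% interval 0.12 to 1.42), with an unadjusted p of 0.0243 and a limma adjusted p of 1.00. It differed from the daf-12 mutant by 0.66 ± 0.30 (0.02 to 1.31), with an unadjusted p of 0.0457 and a limma adjusted p of 1.00. Replicates 1 and 2 alone gave a difference from wild type of 0.04. Replicates 3 and 4 alone gave 1.20 (adjusted p = 0.0720 in a limma fit of that set).

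The dimmer lig-4 probe set ran from 7.16 to 7.67 in the double mutant, from 6.89 to 7.55 in the daf-12 mutant and from 6.91 to 7.49 in wild type. It gave smaller differences, of 0.31 ± 0.22 between the double mutant and either other group. For the daf-12 mutant, the differences from wild type at the lig-4 probe sets were 0.10 ± 0.27 and 0.01 ± 0.20 (95% intervals -0.50 to 0.71 and -0.44 to 0.45).

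Between the mutant groups, cku-70 differed by 0.49 ± 0.43 (95% interval -0.45 to 1.43) and cku-80 by -0.03 ± 0.39 (-0.88 to 0.82). Counting each gene by its brighter probe set, limma called 0 of the 3 partner genes at an adjusted p under 0.05 in any of the 3 comparisons. Over all probe sets it called 0.115% and 0.0133% for the double and the daf-12 mutant against wild type, and 0.0577% between the mutants. At an unadjusted p under 0.05, lig-4 passed in 2 of the comparisons, against 4.01% and 4.92% of all probe sets there. Arrays of the groups overlapped at every probe set of cku-70, cku-80 and lig-4 in all 3 comparisons. At the nhj-1 probe set they did not overlap in either comparison with wild type, but nhj-1 was selected on those values. Over all probe sets, arrays did not overlap for 4.19%, 1.6% and 5.26%, in the order of the comparisons above. Overlap at the few partner probe sets was therefore near the background.

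**Figure D2:**
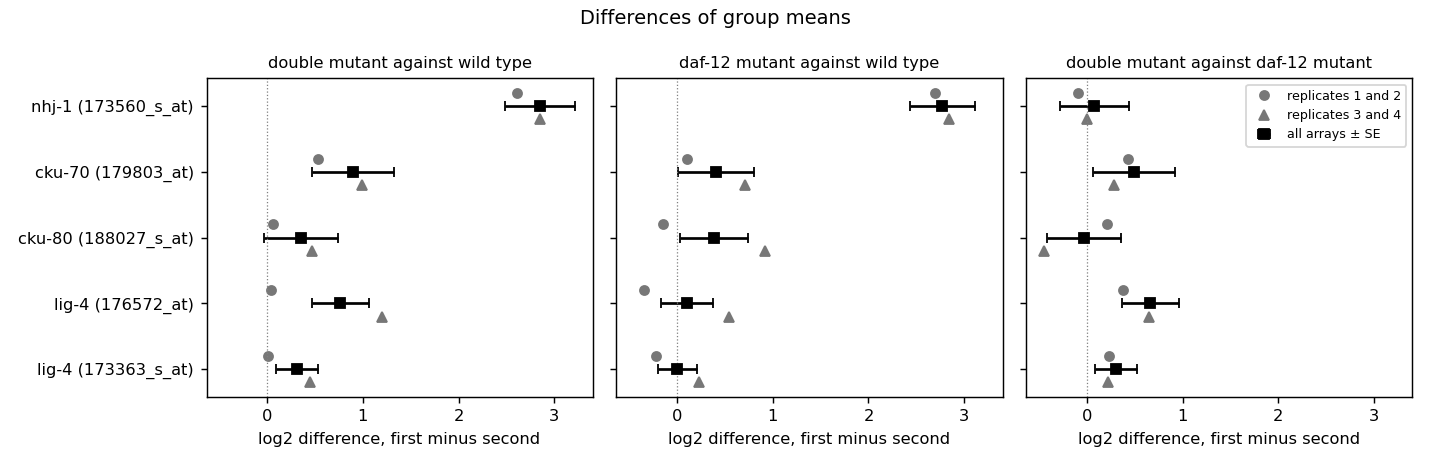
Log2 differences of group means (horizontal axis, first group minus second) for the 5 probe sets in 3 comparisons, as squares with SE for all arrays and as circles for replicates 1 and 2 alone and triangles for replicates 3 and 4 alone. The nhj-1 difference from wild type lies between 2.61 and 2.85 in both mutants for all arrays and for either set, while against wild type the circles of the other probe sets lie between -0.34 and 0.54 and their triangles between 0.23 and 1.20.

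Across sets of arrays the 4 genes moved alike in the mutants. Replicates 3 and 4 lay above replicates 1 and 2 at 5 of 5 probe sets in the double mutant and in the daf-12 mutant, and at 4 of 5 in wild type. Over all probe sets that order held for 47.7%, 45.0% and 49.3%. The largest such shift was 1.19, in cku-80 of the daf-12 mutant, and the single shift below 0 was -0.26, in wild type at the brighter lig-4 probe set. In wild type the higher arrays were 2 and 4, and the lower ones 1 and 3, at all 5 probe sets.

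The genes beside nhj-1 on chromosome V were then compared with it. Of the 5 nearest measured genes on either side, limma called 0 of 10 in each comparison, where it called 26, 3 and 13 of all 22548 probe sets, so a count of 0 was near the background. At an unadjusted p under 0.05 those comparisons held 905, 681 and 1109 probe sets. The gene math-33, whose annotated span overlaps that of nhj-1, differed from wild type by 0.37 ± 0.31 in the double mutant and by 0.00 ± 0.28 in the daf-12 mutant (limma adjusted p = 1.00 each). On the other side, mboa-2 differed by -0.15 ± 0.25 and 0.15 ± 0.23. The translation release factor gene erfa-3 gave 0.03 ± 0.20 and -0.12 ± 0.19, and the ATP synthase gene atp-5 gave -0.13 ± 0.16 and -0.09 ± 0.15.

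Over the 10 neighbours the differences ran from -0.81 to 0.37 in the double mutant (median -0.15) and from -0.12 to 0.50 in the daf-12 mutant (median 0.08). The lowest were those of cdkl-1, a gene for a cyclin-dependent kinase-like protein, at -0.81 ± 0.63, and of Y42A5A.3 at -0.81 ± 0.55 in the double mutant. Their arrays also lay below those of the daf-12 mutant without overlap, by -1.31 ± 0.63 and -0.90 ± 0.55, uncalled (limma adjusted p = 1.00 each). These were 2 of the 10 neighbours, against 5.26% of all probe sets without overlap between the mutants. The groups overlapped for all 10 neighbours in both comparisons with wild type, where 4.19% and 1.6% of all probe sets did not overlap. None of the 10 differed from wild type by as much as 1, against 2.85 and 2.77 for nhj-1.

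**Figure D3:**
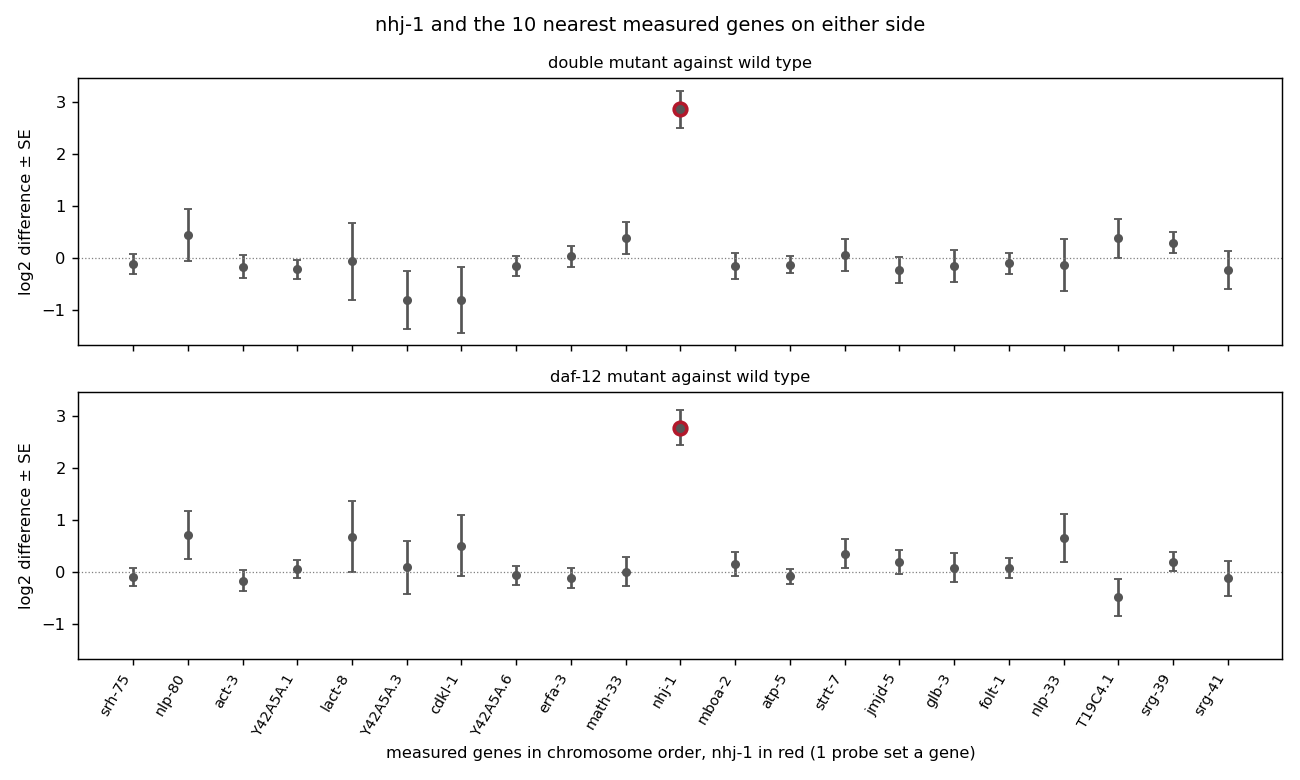
Log2 differences ± SE (vertical axis) of nhj-1, in red, and the 10 nearest measured genes on each side, in chromosome order, for the double mutant (top) and the daf-12 mutant (bottom) against wild type. The 20 neighbours lie between -0.81 and 0.43 in the top panel and between -0.49 and 0.70 in the bottom panel, with nhj-1 at 2.85 and 2.77.

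The genes whose values followed nhj-1 most closely over the 11 arrays were found by Pearson correlation, given without a p because the genes were selected by it and the arrays fall into groups. The closest were Y105C5B.9 (r = 0.92) and djr-1.2, a member of the DJ-1 family (r = 0.92). Next were F59B2.3 (0.91), the fatty acid amide hydrolase-related gene faah-3 (0.91), C29F7.2 (0.89), the catalase gene ctl-2 (0.88) and cbp-2 (0.87). The list of 10 ended with ZK1321.4 (0.86), F19C7.2 (0.86) and the C-type lectin gene clec-76 (0.86).

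Their steps from wild type were smaller than that of nhj-1. The double and the daf-12 mutant stood 1.09 and 0.92 above wild type in Y105C5B.9, in djr-1.2 1.21 and 0.88, in clec-76 0.82 and 1.04, and in ctl-2 0.33 and 0.53. On chromosome V, which also holds nhj-1, lay 1 of the 10, djr-1.2, while 4 were on IV, 2 on II, 2 on III and 1 on X. For the other end-joining genes, r with nhj-1 was 0.68 for cku-70, 0.57 for cku-80 and 0.56 and 0.45 for the lig-4 probe sets. They ranked from 277 to 1931 of 20766 named probe sets. The 10 genes above were picked for the highest r, so a lower r outside that list was fixed by the choice.

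**Figure D4:**
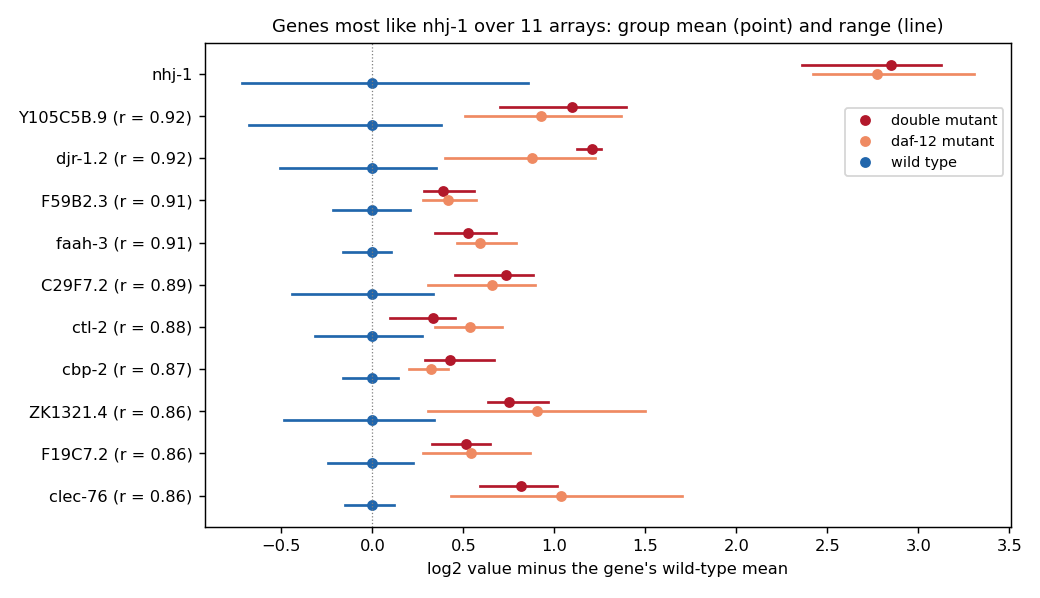
Group means (points) and ranges over arrays (lines) of nhj-1 and the 10 genes most like it, as the log2 value minus the wild type mean of the gene, with r over 11 arrays beside each name. The mutant means of nhj-1 lie at 2.85 and 2.77, and those of the other genes between 0.32 and 1.21.

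Other genes of DNA repair were measured to see how widely such a change was shared. Of 70 genes in 4 lists, 68 had a probe set, and limma called 0 of the 68 higher and 0 lower in each of the 3 comparisons. At an unadjusted p under 0.05 there were 2 against wild type in the double mutant, 1 in the daf-12 mutant and 4 between the mutants. Over all probe sets the shares at that p were 4.01%, 3.02% and 4.92%, so the repair genes were near the background. Arrays did not overlap for 1, 1 and 4 of the 68 genes in the same order. Over all probe sets 4.19%, 1.6% and 5.26% did not overlap, so these counts were also near the background. The median difference of the 68 was 0.08 and -0.03 for the double and the daf-12 mutant against wild type, and 0.10 between the mutants. Over all probe sets those medians were -0.03, -0.03 and -0.01.

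The 13 genes of alternative end joining and of the trimming of DNA ends had medians of 0.09, -0.08 and 0.18 in the same order. The largest differences from wild type in the double mutant were in rad-50, of the complex that binds and trims ends, at 0.45 ± 0.44. They were 0.43 ± 0.25 in parp-1, a poly(ADP-ribose) polymerase that senses breaks, and 0.36 ± 0.23 in him-6, the worm BLM helicase. In the daf-12 mutant rad-50 differed from wild type by 0.33 ± 0.41 and helq-1, a helicase, by -0.23 ± 0.21. The gene lig-1, for the ligase of DNA replication, was 0.46 ± 0.21 higher in the double mutant than in the daf-12 mutant without overlap of the arrays (limma adjusted p = 1.00). Arrays of the mutants did not overlap for 2 of these 13 genes, against 5.26% of all probe sets.

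Among 19 genes of homologous recombination the medians were 0.18, 0.00 and 0.12. In the double mutant, rpa-1, which coats single-stranded DNA, stood 0.89 ± 0.35 above wild type and rad-51, the strand-exchange recombinase, 0.65 ± 0.26 (unadjusted p = 0.0256 and 0.0306, limma adjusted p = 1.00 each). In the daf-12 mutant rip-1, a partner of a RAD-51 paralog, differed from wild type by 0.38 ± 0.28 and brd-1 by -0.20 ± 0.18. The gene brd-1, for the BARD1 partner of BRC-1, was 0.56 ± 0.19 higher in the double mutant than in the daf-12 mutant (limma adjusted p = 0.822). In that comparison rpa-1 was 0.80 ± 0.35 higher (limma adjusted p = 0.987) and rad-51 0.52 ± 0.26 higher.

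The 12 genes of DNA damage signalling had medians of 0.03, -0.10 and 0.11. In the double mutant 6 of the 12 were above 0 against wild type. The largest differences there were 0.44 ± 0.29 in clk-2, 0.41 ± 0.26 in chk-1 and -0.40 ± 0.24 in the worm p53 gene cep-1. In the daf-12 mutant 3 of the 12 were above 0 against wild type, and the cell death activator egl-1 differed by -0.53 ± 0.34. The checkpoint kinase gene atm-1 was -0.31 ± 0.17 in the daf-12 mutant, where its arrays lay below all wild type arrays (limma adjusted p = 1.00). It was 1 of the 12 genes, against 1.6% of all probe sets without overlap in that comparison. The 24 other repair genes, for mismatch, excision and crosslink repair and telomeres, had medians of 0.06, 0.01 and -0.05. Between the mutants the mismatch repair gene mlh-1 differed by 0.58 ± 0.24 and the uracil glycosylase gene ung-1 by 0.76 ± 0.35 (limma adjusted p = 0.960 and 1.00). In that comparison trt-1 differed by -0.57 ± 0.58, and 9 of the 24 genes were above 0.

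Within replicates 3 and 4 alone, 9 of the 68 genes were called between the mutants, where 8.39% of all probe sets were. Higher in the double mutant were ung-1 (1.25), mlh-1 (1.10), chk-1 (0.93), rpa-1 (0.84), brd-1 (0.77) and rpa-2 (0.75), and lower were trt-1 (-1.76), xpg-1 (-1.42) and apn-1 (-1.04), with limma adjusted p from 0.0150 to 0.0486. Genes outside the naming rule in this count were named after their values were seen.

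**Figure D5:**
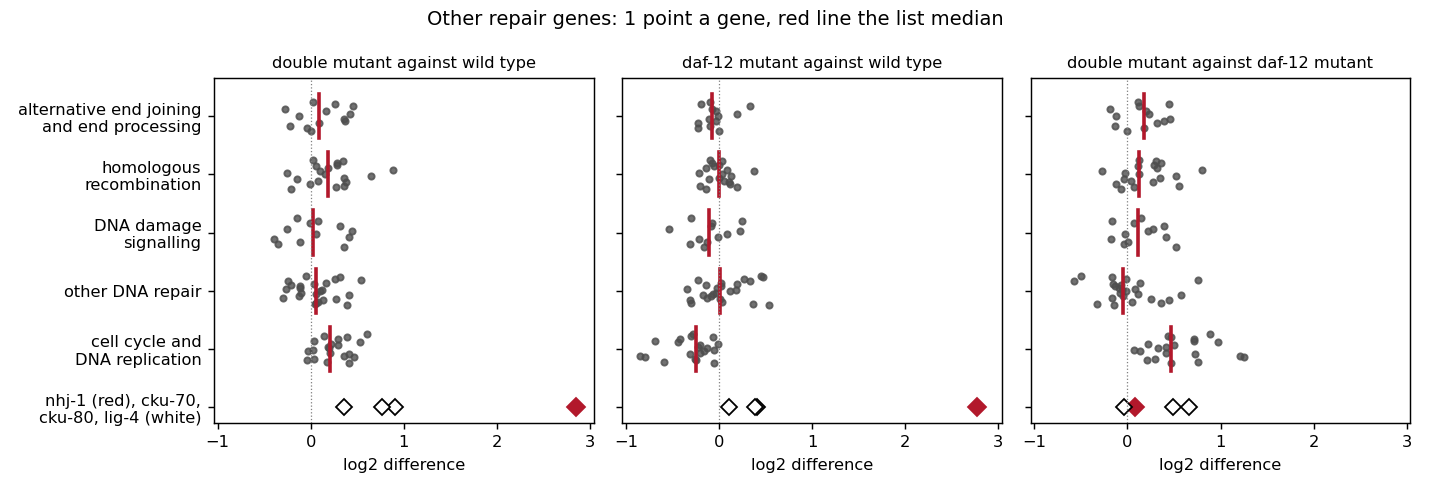
Log2 differences (horizontal axis) of the genes of 4 repair lists and of cell cycle genes, 1 point a gene with the list median in red, for 3 comparisons, above the 4 end-joining genes as diamonds. In the comparisons with wild type the repair genes lie between -0.53 and 0.89, with nhj-1 at 2.85 and 2.77.

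Markers of dividing cells, of the germ line and of yolk were read on the same arrays. Against wild type, 18 of the 20 cell cycle and DNA replication genes were above 0 in the double mutant and 0 of 20 in the daf-12 mutant (medians 0.21 and -0.25). At an unadjusted p under 0.05 there were 0 and 3 of the 20, against 4.01% and 3.02% of all probe sets. Arrays did not overlap with wild type for 0 and 2 of the 20, against 4.19% and 1.6%. Between the mutants 20 of 20 were higher in the double mutant (median 0.47), with 8 of 20 at an unadjusted p under 0.05, against 4.92% of all probe sets. The arrays did not overlap for 4 of the 20, against 5.26% of all probe sets in either direction. In the same comparison lig-4, lig-1, rpa-1, rad-51, brd-1, mlh-1 and ung-1 above were also higher, while cku-80 was at -0.03 and trt-1 at -0.57. These genes were named here after their values were seen. Of the 68 repair genes 40 were above 0 there, with 9 of 24 in the list of other DNA repair. At an adjusted p under 0.05 limma called 0 of the 20 cell cycle and DNA replication genes in each of the 3 comparisons. Their mean level was 7.08, 7.84 and 7.68 on double mutant arrays 1-2, 3 and 4, from 6.74 to 7.23 in the daf-12 mutant and from 7.12 to 7.60 in wild type. In the double mutant it was higher on arrays 3 and 4 than on array 1-2, as were nhj-1 and its partners. In the daf-12 mutant it was lower on arrays 3 and 4 (6.75 and 6.74) than on 1 and 2 (7.23 and 7.16), the reverse of the order of nhj-1 and its partners. Within replicates 3 and 4 the mean level of these 20 genes was therefore higher in the double mutant than in the daf-12 mutant. Within replicates 1 and 2 it was lower in the double mutant, at 7.08 on its single array there.

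The 18 germ line and early embryo genes averaged 6.35 to 6.44 in the double mutant, 6.03 to 6.66 in the daf-12 mutant and 6.34 to 6.51 in wild type. The 5 vitellogenin genes averaged 4.97 to 5.05, 4.58 to 5.12 and 4.79 to 5.45 in that order, and limma called 0 of either list. The difference between the 3' and 5' probe sets of the GAPDH control was -0.22 to -0.02 in the double mutant, -0.13 to -0.01 in the daf-12 mutant and -0.19 to 0.26 in wild type. The part of these measures in the end-joining values was not tested.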

How the data were processed

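Total RNA from whole embryos was biotin-labelled and hybridised to Affymetrix arrays, per the labels' protocols. The authors deposited log2 values, made with RMA per the submitters' processing notes, which give no version. No genome build is given in the sources used here. The 12 columns were mapped by sample and 0 were left unmapped. Identical columns were counted once, and 77 control probe sets were not tested.

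Group means over 11 arrays were fitted with limma 3.58.1 (R 4.3.3; lmFit and eBayes, no block). Tests were two-sided, with Benjamini-Hochberg adjustment over all 22548 probe sets and calls at an adjusted p under 0.05. The probe set with the highest mean stood for a gene. Symbols came from the platform annotation. All 4 gene symbols matched a RefSeq gene table (assembly WBcel235), which gave names, chromosomes and gene order alone. The number of arrays limits the precision.

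Named genes were the 4 members, the 10 most correlated with nhj-1, the 5 neighbours on either side, and in each repair list the called members or, with none called, up to 3 with the largest differences. Members, lists and most alternatives were chosen with earlier results of these data known. Alternatives were a replicate block, a block for the sets of arrays, each set alone, 12 separate columns, each array left out, other scaling, brighter probe sets alone, another variance model and 2 groups alone.

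Deviations from the group mean at equal replicate numbers correlated at 0.22 to 0.29 between the mutants. For the double mutant with wild type they correlated at 0.33 to 0.49, and for the daf-12 mutant with wild type at -0.0292 to 0.67. Array 1-2 entered these correlations under both of its numbers. The main fit did not pair arrays by replicate number in any comparison, and the replicate block was an alternative. Tested on simulated data of 22548 probe sets, the fit called 33% of log2 changes of 1 and 92% of those of 2 in the double mutant versus wild type. It called 41% and 85% in the daf-12 mutant versus wild type, and 38% and 79% between the mutants. The simulated noise was normal and independent between arrays, with no difference between the sets of arrays. These rates may therefore not hold for the real arrays.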

Additional observations from a re-analysis of the deposited data

How the results depend on the processing

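The nhj-1 difference ran from 2.61 to 3.14 and from 2.53 to 3.05 for the double and the daf-12 mutant against wild type over 20 alternatives each, and from -0.10 to 0.33 between the mutants. With a replicate block it was 2.84, 2.77 and 0.07, and with array 1-2 placed under number 2, an alternative chosen after seeing the data, 2.67, 2.77 and -0.10. The block changed no call among the Ku, ligase and other repair genes. Counts of called Ku and ligase genes were 0 under every alternative run, with adjusted p down to 0.0720. Many of these zeros carry little information, since 0 of all probe sets were called in any comparison within replicates 1 and 2 alone, and 0 under 12 of 22 alternatives for the daf-12 mutant versus wild type. Counts of other repair genes called were also 0, except for the 9 between the mutants within replicates 3 and 4 alone, and the cause of that exception was not tested. The cku-80 probe set was below the filter on dim probe sets and had no value there. Directions that turned were all of uncalled differences. Within replicates 1 and 2, the daf-12 mutant differed from wild type by -0.15 in cku-80 and by -0.34 and -0.22 at the brighter and the dimmer lig-4 probe set, and the mutants differed by 0.21 in cku-80. With 1 array left out, cku-70 ranged from 0.57 to 1.17 in the double mutant and from 0.0759 to 0.62 in the daf-12 mutant relative to wild type, the lig-4 probe sets of the daf-12 mutant ranged from -0.0368 to 0.25 and from -0.12 to 0.11 relative to wild type, and cku-80 from -0.29 to 0.22 between the mutants. With arrays centred on their median, the dimmer lig-4 probe set gave -0.0288 there, and with quantile normalization it gave -0.0356 and cku-80 between the mutants 0.0301. The number of arrays and the unknown signal over background limit what could be called.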
